A study of Mus musculus with 4 samples.

Results

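A set of 10 genes was followed across the T and NK cells of mouse liver: the checkpoint receptor genes Pdcd1, Lag3, Havcr2, Tigit, Ctla4 and Cd244a, the ectoenzyme gene Entpd1, the transcription factor gene Tox, and the genes Coch and Adgrg1. They are 10 of the 32285 genes counted. They were chosen by their levels and their co-detection in single T and NK cells of these same libraries, so their values in those cells are given as a description, with no test. The livers came from male C57BL/6J mice: NCD mice had normal chow with distilled water by mouth (1 library), HFD mice had a high-fat diet with distilled water (2 libraries), and JQF mice had the same high-fat diet and then Jiangtang Qingre Formula, a multi-herb preparation, by mouth (1 library). HFD feeding is therefore shared by the HFD and JQF groups and is the study's model of fatty liver disease. Single-cell 3′ RNA libraries were made from perfused and digested liver, and only the HFD group holds a second library, so the spread between libraries is known for HFD alone and rests on n = 2.

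After removal of cells with fewer than 500 genes or more than 20% mitochondrial UMIs (unique molecular identifiers, the counted molecules), 5975 to 10259 cells and 67615639 to 108062769 UMIs per library remained. NCD was deepest, at a median of 13081 UMIs per cell, against 7608 to 8884 in the other libraries. The labels call the material immune cells, but 61.8% of the kept NCD cells lay in the endothelial gate, against 1.78% to 10.6% of HFD cells and 6.70% of JQF cells. Any pair of libraries shared 12 to 27 cell barcodes.

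Cells were named by gates on raw UMIs of marker genes, with none of the members among them. The CD8 gate (Cd3 genes with Cd8a or Cd8b1, without Cd4, Foxp3, Zbtb16 or the Trav11 genes) held 198 NCD cells, 1039 and 1206 HFD cells and 746 JQF cells, and was 3.31%, 15.9%, 11.8% and 8.74% of the kept cells in that order. Trac, which the gate did not use, had a UMI in 88.9% to 90.7% of its cells, Lck in 90.0% to 96.0%, Cd2 in 75.8% to 83.3% and Cd5 in 44.9% to 59.1%. Nkg7 and Ccl5, genes of cytotoxic and memory cells, were lowest in JQF as well, with Nkg7 at 1475 CPM in NCD, 1603 and 2283 CPM for the HFD pair and 961 CPM in JQF, and Ccl5 at 9971, 18933 and 19091, and 7268 CPM (CPM are UMIs scaled to a fixed total in the gate). Genes of other cells had a UMI in 0.505% to 0.938% (Cd79a, B cells), 2.53% to 6.63% (S100a8, neutrophils), 0.192% to 12.1% (Clec4g, endothelium), 3.54% to 28.2% (Lyz2, myeloid cells) and 14.0% to 51.5% (Alb, hepatocytes). Their summed level was 88.5 to 210 CPM, and the part of either set in the members' values was not tested. The CD4, Treg, iNKT-like and NK gates held 148 to 373, 30 to 62, 199 to 1922 and 39 to 365 cells per library. Klrb1a, a marker set down for the iNKT-like gate, was nearly absent there, at 0 to 5.77 CPM, while Cxcr6 reached 295 to 365 CPM and Il2rb 469 to 614 CPM. The NK gate, set by Ncr1 without Cd3 genes, can also hold ILC1 (type 1 innate lymphoid cells). A UMI was in 91.2% to 97.4% of its cells for Klrb1c, 95.5% to 100% for Klrk1 and 92.3% to 100% for Nkg7. Klre1 was in 82.1% to 91.1% and Prf1 in 56.4% to 76.2%. Eomes was in 10.3% of NCD, 26.0% and 29.3% of HFD and 35.8% of JQF gate cells. For Gzma the shares were 20.5%, 31.2% and 57.3%, and 64.8%. The part of the cell mix in the NK gate values was not tested.

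T cells that meet their antigen for long periods, as in tumours and chronic infection, can enter a state called exhaustion, in which several inhibitory receptors are held on the same cell. PD-1 (Pdcd1), LAG-3, TIM-3 (Havcr2), TIGIT, CTLA-4 and 2B4 (Cd244a) bind ligands on antigen presenting and tissue cells and dampen T cell receptor or costimulatory signals, CD39 (Entpd1) splits extracellular ATP, and TOX is the nuclear factor best known for holding the programme in place. In fatty liver, CD8 T cells that carry PD-1 are a known part of the resident lymphocytes.

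The DNA just before the start sites is shown for 3 genes, Pdcd1 as the receptor the others are read against below, and Havcr2 and Coch as the members with the widest gaps between HFD and JQF. Each is the 250 bases upstream of the RefSeq start on build GRCm38.p6, read 5′ to 3′ along the gene's own strand. Capitals mark matches, on either strand, to an NFAT core (GGAAA), a RUNX core (TGTGGT), an AP-1 site (TGACTCA), a T-box site (TCACACCT), an NR4A site (AAAGGTCA) and a TCF-LEF site (CTTTGAA). The windows lie at chr1:94052554-94052803 on the minus strand for Pdcd1, chr11:46454681-46454930 on the plus strand for Havcr2 and chr12:51593091-51593340 on the plus strand for Coch.
Pdcd1: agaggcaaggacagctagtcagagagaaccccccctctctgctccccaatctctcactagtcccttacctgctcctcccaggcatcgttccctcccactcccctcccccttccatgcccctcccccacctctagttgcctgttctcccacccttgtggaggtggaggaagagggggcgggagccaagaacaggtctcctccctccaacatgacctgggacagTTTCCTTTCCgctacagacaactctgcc
Havcr2: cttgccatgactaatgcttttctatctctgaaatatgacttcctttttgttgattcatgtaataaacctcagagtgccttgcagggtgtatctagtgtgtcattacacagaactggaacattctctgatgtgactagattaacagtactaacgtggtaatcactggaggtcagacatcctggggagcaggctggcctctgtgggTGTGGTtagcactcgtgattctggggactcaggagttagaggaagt
Coch: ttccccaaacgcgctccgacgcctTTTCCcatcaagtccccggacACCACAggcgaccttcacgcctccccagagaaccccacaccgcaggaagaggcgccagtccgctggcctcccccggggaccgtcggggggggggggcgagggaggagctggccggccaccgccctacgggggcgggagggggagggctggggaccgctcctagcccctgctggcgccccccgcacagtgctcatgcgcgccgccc
Pdcd1 held 2 NFAT core matches and Coch 1 NFAT core and 1 RUNX match, while Havcr2 held 1 RUNX match and no NFAT core. Of the 8 members with a window in the RefSeq table, 6 held an NFAT core, against 55.6% of all 32851 windows of that length, 3 held the RUNX core (14.0% of all windows) and 2 the AP-1 site (4.46%). None of the 8 held the T-box (1.12%), NR4A (1.34%) or TCF-LEF letters (4.46%). Entpd1 and Adgrg1 have 2 starts in the table, and a match at either start was counted. A match is a run of letters and not a shown binding site.

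In the CD8 gate, 9 of the 10 genes were lower in JQF than in both HFD libraries, by 2.66-fold for Tox to 101-fold for Coch against the HFD mean. Of all 8166 genes at a mean of 10 CPM or more in this gate, 48.1% were below both HFD libraries in JQF and 3.17% were 2-fold or more below the HFD mean. NCD had no such single place and was below both HFD libraries for 3 members (Lag3, Coch and Adgrg1; 41.1% of all genes), above both for 4 (Havcr2, Tigit, Entpd1 and Cd244a; 41.3%) and between them for 3 (Pdcd1, Ctla4 and Tox). Both comparisons, with NCD and with JQF, use the same HFD libraries and are not independent.

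**Figure D1:**
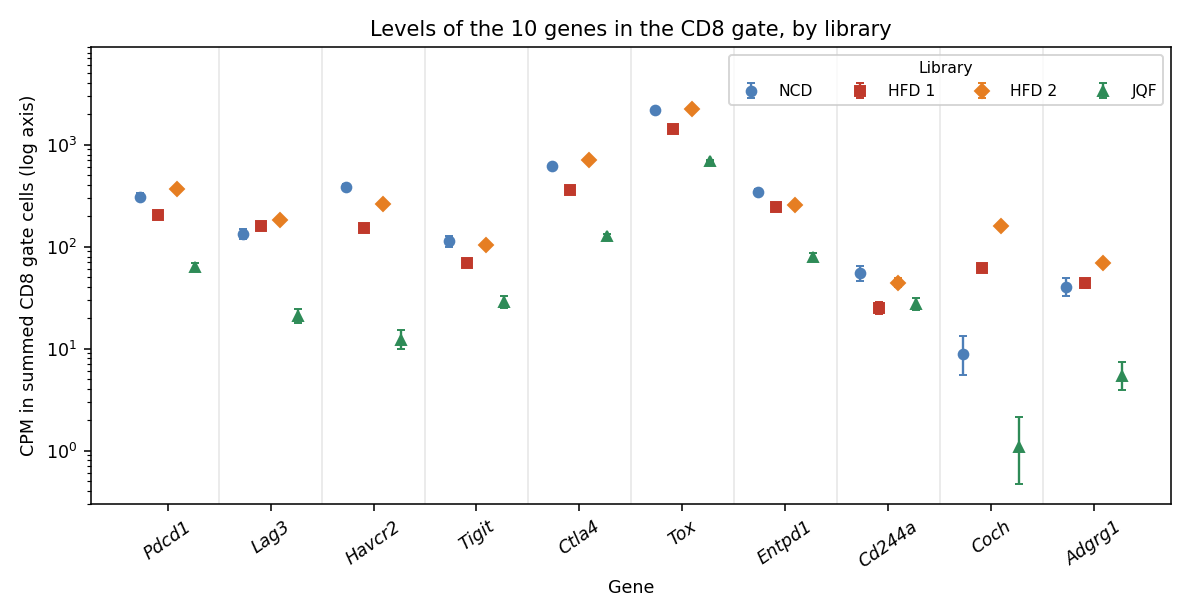
CPM of each gene in the summed UMIs of the CD8 gate (log axis), with 1 symbol per library and exact Poisson 95% intervals, which cover counting error only. JQF is the lowest library for 9 genes, and for Coch the 2 HFD libraries at 61.1 and 158 CPM stand above NCD at 8.82 CPM and JQF at 1.09 CPM.

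Pdcd1 (ENSMUSG00000026285, GRCm38 chr1:94038305-94052553), which encodes PD-1, was at 309 CPM in NCD, 204 and 367 CPM in the 2 HFD libraries (286 ± 116, SD, n = 2) and at 63.6 CPM in JQF. NCD lay inside the HFD pair, which itself differed 1.80-fold, and JQF was 4.49-fold below the HFD mean. A Pdcd1 UMI was found in 47.0% of NCD cells, 47.2% and 63.9% of HFD cells and 22.9% of JQF cells, whereas in the B gate, a cell type that should lack the gene, at medians of 5000 to 8021 UMIs per cell against 6828 to 11643 in the CD8 gate, the share was 0 to 1.04%. Cells with a Pdcd1 UMI held on average 8.30 of them in NCD, 3.49 and 4.58 in the HFD pair and 2.73 in JQF. Both the share of cells and the copies per positive cell were lowest in JQF.

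Ctla4, whose product competes with CD28 for CD80 and CD86, kept nearly the same ratio to Pdcd1 in every library. It was at 620 CPM in NCD, 357 and 710 CPM in HFD (534 ± 250) and at 126 CPM in JQF, and this made 200.3, 175, 193 and 198 Ctla4 UMIs per 100 Pdcd1 UMIs. Of the 9 other genes, Ctla4 had the smallest fold between its highest and lowest ratio over the 4 libraries. Tigit, the receptor for PVR, was at 113 CPM in NCD, 69.1 and 104 CPM in HFD (86.3 ± 24.4) and 28.9 CPM in JQF. NCD was the highest library for Tigit, yet only 1.30-fold above the HFD mean, less than the gap within the HFD pair.

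Lag3 and Havcr2 did not keep a fixed ratio to Pdcd1. Lag3, whose product binds MHC class II, was at 132 CPM in NCD, 158 and 182 CPM in HFD (170 ± 17.1) and 20.96 CPM in JQF, an 8.13-fold gap between the HFD mean and JQF. Havcr2, which encodes TIM-3, was highest in NCD at 383 CPM, stood at 154 and 259 CPM in HFD (206 ± 74.5) and was at 12.2 CPM in JQF, 16.9-fold below the HFD mean and 31.3-fold below NCD. Per 100 Pdcd1 UMIs there were 124 Havcr2 UMIs in NCD, 75.5 and 70.5 in the HFD pair and 19.3 in JQF. A Havcr2 UMI was in 39 of 746 JQF cells (5.23%), against 2.60% of JQF B gate cells, so the JQF share stood little above that background.

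Cd244a, the gene of the receptor 2B4, was the exception. It was at 54.5 CPM in NCD, 25.0 and 44.5 CPM in HFD (34.7 ± 13.7) and 27.5 CPM in JQF, so that JQF lay inside the HFD pair. In the B gate a Cd244a UMI was in up to 4.17% of cells. Relative to Pdcd1 it was highest in JQF, as were Tox, Tigit and Entpd1, with 17.6 UMIs per 100 in NCD, 12.3 and 12.1 in the HFD pair and 43.3 in JQF. Cd244a overlaps Ly9, a separately counted gene on the opposite strand.

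Entpd1, which encodes the ectonucleotidase CD39, was the steadiest gene within HFD, at 244 and 254 CPM (SD 7.05, n = 2), against 340 CPM in NCD and 79.1 CPM in JQF. The gap from HFD to JQF was 3.15-fold. Entpd1 and Ctla4 were not absent from the B gate, where 10.4% to 18.2% and 8.62% to 24.4% of cells had a UMI. Tox was the most evenly spread over cells, with a UMI in 83.3% of NCD cells, 77.1% and 83.3% of HFD cells and 64.9% of JQF cells. It stood at 2201 CPM in NCD, 1429 and 2234 CPM in HFD (1832 ± 569) and 688 CPM in JQF, and its 2.66-fold gap from HFD to JQF was the smallest after Cd244a. Per 100 Pdcd1 UMIs, Tox was at 711 in NCD, 702 and 608 in the HFD pair and 1082 in JQF. Tox overlaps the antisense gene Gm11802 and Entpd1 the intronic transcript AC166063.1, both counted as separate genes in the files.

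Coch, which encodes cochlin, a secreted protein best known from the inner ear, had the widest range of all members. It had 22 UMIs in 7 of 198 NCD cells (8.82 CPM), 513 UMIs in 157 of 1039 cells of HFD replicate 1 (61.1 CPM), 1520 UMIs in 440 of 1206 cells of HFD replicate 2 (158 CPM) and 8 UMIs in 6 of 746 JQF cells (1.09 CPM). The HFD mean was 110 ± 68.7 CPM, with a 2.59-fold gap inside the pair, and stood 12.4-fold above NCD and 101-fold above JQF. On the log2 scale the ratio of HFD to NCD was 3.64, with 4.17 without HFD replicate 1, 2.79 without HFD replicate 2 and 4.36 in cells without Ccr7 and Lef1, and that of JQF to HFD was -6.65, with -7.18 and -5.81 without either HFD library. In NCD 3 cells carried 81.8% of the Coch UMIs, whereas the top 3 cells carried 9.36% and 3.22% in HFD. In the B gate Coch had 0 UMIs in NCD and both HFD libraries and 1 UMI in JQF. Relative to Pdcd1 there were 2.85 Coch UMIs per 100 Pdcd1 UMIs in NCD, 30.0 and 43.1 in the HFD pair and 1.71 in JQF. NCD thus had Pdcd1 and Tox inside the range of the HFD pair and Havcr2 above it, but Coch below it.

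Adgrg1, which encodes the adhesion receptor GPR56 known from cytotoxic lymphocytes, was at 40.5 CPM in NCD, 43.6 and 69.2 CPM in HFD (56.4 ± 18.1) and 5.44 CPM in JQF, a 10.4-fold gap from the HFD mean. Unlike Coch, it was present in 28.8% of NCD cells, near the 21.6% and 30.5% of HFD. In JQF it was in 4.29% of cells, against 0.781% of JQF B gate cells. With each cell thinned to 2000 UMIs, Adgrg1 was in 10.3% of NCD cells, 6.91% and 13.6% of HFD cells and 1.34% of JQF cells, and Coch in 1.03%, 7.11% and 20.7%, and 0.269%.

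**Figure D2:**
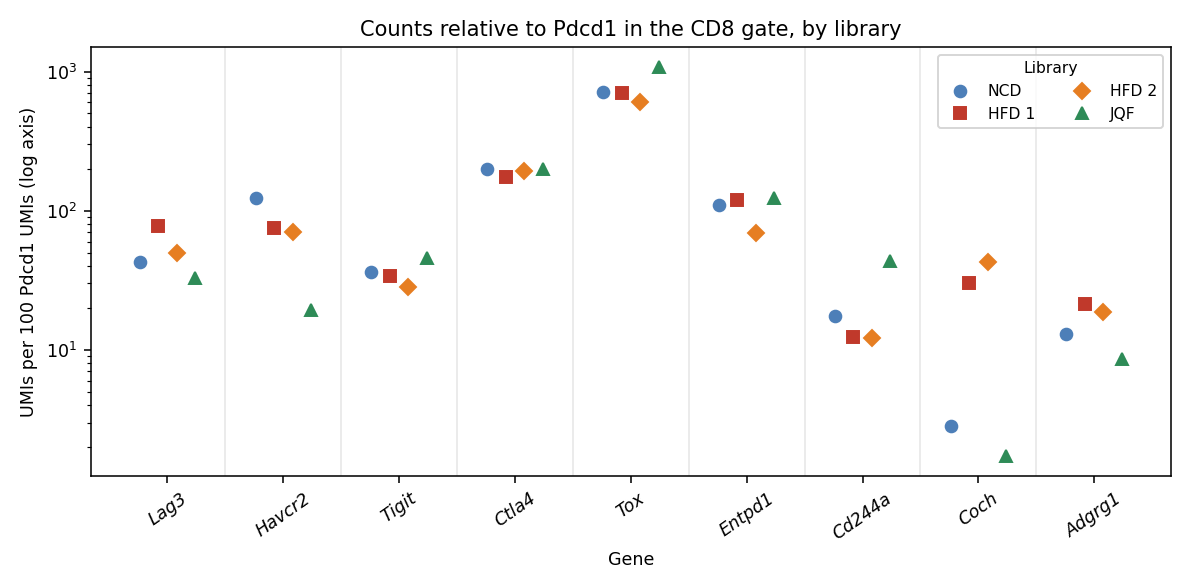
UMIs of each gene per 100 Pdcd1 UMIs in the CD8 gate (log axis), with 1 symbol per library. Ctla4 stays between 175 and 200.3 in every library, while Coch ranges from 1.71 in JQF to 43.1 in HFD replicate 2 and Havcr2 from 19.3 in JQF to 124 in NCD.

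Co-detection in single cells was likewise lowest in JQF. At least 2 of the 5 receptors Pdcd1, Lag3, Havcr2, Tigit and Ctla4 had a UMI in 112 of 198 NCD cells (56.6%, exact binomial 95% interval 49.4 to 63.6), in 52.1% and 66.9% of HFD cells (59.5 ± 10.5, n = 2) and in 206 of 746 JQF cells (27.6%, 24.4 to 31.0). The intervals cover counting error only. All 5 receptors were found together in 29.3% of NCD cells, 12.7% and 22.2% of HFD cells and 0.268% of JQF cells, which was 2 cells. NCD cells are deeper, so each cell was also thinned to 2000 UMIs. The share with at least 2 receptors was then 41.0% in NCD, 33.3% and 51.3% in the HFD pair and 8.74% in JQF, and that with all 5 was 1.54%, 0.779% and 2.18%, and 0%. At equal depth NCD lay inside the HFD pair for the first share, and JQF below both.

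**Figure D3:**
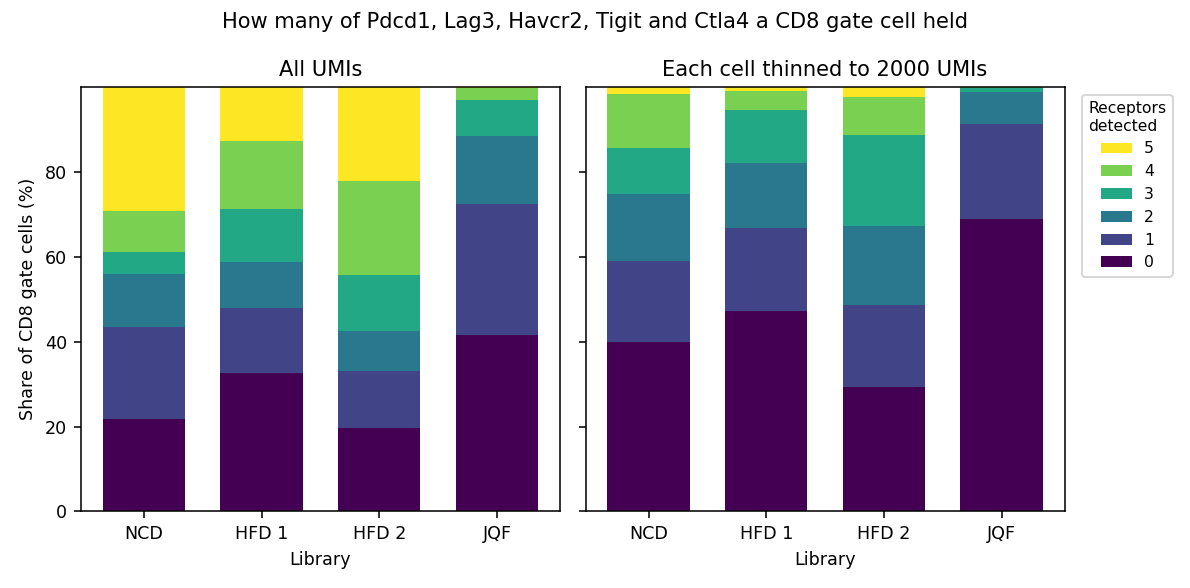
Share of CD8 gate cells in which 0 to 5 of Pdcd1, Lag3, Havcr2, Tigit and Ctla4 had a UMI, by library, with all UMIs on the left and with each cell thinned to 2000 UMIs on the right. After thinning, 69.0% of JQF cells held none of the 5, against 40.0% for NCD and 47.3% and 29.3% for HFD.

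Most pairs of members were found in the same cells more often than their separate frequencies give. Co-detection was part of how the members were chosen, and no share is given for other gene pairs of this mixed gate. The ratios are therefore a description. After thinning, the observed number of cells with both genes of a pair, divided by the number given by independence, had a median of 1.38 in NCD over the 37 pairs for which independence gives at least 1 cell, 1.64 and 1.40 in HFD over 45 pairs each, and 1.67 in JQF over 28 pairs. Above 1 were 33 of 37 pairs in NCD, 41 of 45 in HFD replicate 1, 45 of 45 in HFD replicate 2 and 25 of 28 in JQF. The highest ratio was 2.29 for Pdcd1 with Havcr2 in NCD, 2.42 for Lag3 with Coch in HFD replicate 1 2.12 for Coch with Adgrg1 in HFD replicate 2 and 3.76 for Entpd1 with Cd244a in JQF. The lowest was 0.63 in NCD (Havcr2 with Cd244a) and in HFD replicate 1 (Tigit with Cd244a), 1.18 in HFD replicate 2 and 0 in JQF. Tox was in 440 of the 440 HFD replicate 2 cells with a Coch UMI and in 99.4% of those of HFD replicate 1.

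The other members were read in cells with and without Pdcd1. In HFD, 69.4% and 74.1% of Pdcd1-positive cells held Havcr2, against 12.8% and 11.7% of the rest, and 74.1% and 71.2% held Lag3, against 14.9% and 9.89%. In NCD 82.8% of Pdcd1-positive cells held Havcr2 and 59.1% Adgrg1. Among the 171 JQF cells with Pdcd1, the shares were 12.3% for Havcr2, 30.4% for Lag3, 14.0% for Adgrg1, 44.4% for Entpd1, 33.9% for Tigit, 2.92% for Coch, 95.3% for Tox and 65.5% for Ctla4, each below NCD and both HFD libraries, and 21.6% for Cd244a, which lay between the HFD libraries at 14.3% and 24.9%. For Ctla4 the nearest library, HFD replicate 1, was at 66.3%. JQF cells with Pdcd1 had a median of 6989 UMIs and HFD cells with Pdcd1 7139 and 6930. With cells thinned to 2000 UMIs, Havcr2 was in 4 of the 81 JQF cells that still held Pdcd1 (4.94%), against 72.7% in NCD and 39.2% and 47.3% for the HFD pair, and Lag3 was in 12.3%, against 36.4%, and 41.6% and 36.2%. Ctla4 was then in 43.2% of the JQF cells, no longer below the 43.0% of HFD replicate 1, and Coch in 0 of 81 JQF cells and 0 of 55 NCD cells with Pdcd1. These shares are a description, and the JQF cells with Pdcd1 also held the fewest copies of it.

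Coch and Adgrg1 marked overlapping cells. In HFD, 49.0% and 54.3% of Coch-positive cells held Adgrg1 against 16.7% and 16.8% of Coch-negative cells, and the thinned ratio of the pair was 2.18 and 2.12. Coch was in 26.7% and 53.8% of Pdcd1-positive HFD cells, in 6.45% of those of NCD and in 2.92% of those of JQF. NCD cells with Pdcd1 were the deepest, with a median of 12823 UMIs, and 6 of 93 had a Coch UMI.

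A CD8 gate holds naive cells too, which carry little of these receptors. Cells without a UMI of Ccr7 and Lef1, genes of naive and central memory cells, were 52.5% of the gate in NCD, 57.2% and 69.3% in the HFD pair and 44.1% in JQF. Among these cells alone, a choice made after the values were seen, Pdcd1 was at 503 CPM in NCD, 338 and 509 CPM in the HFD pair and 136 CPM in JQF, and Coch was at 8.16, 107 and 228, and 2.31 CPM. JQF was again below both HFD libraries for 9 of 10 members, with folds from 2.02 for Tox to 72.6 for Coch. The share of all genes is not given for these cells, and was 48.1% in the whole gate. At least 2 receptors were found in 77.9% of these cells in NCD, 72.2% and 83.4% in the HFD pair and 41.6% in JQF. Each of the 9 folds was smaller than in the whole gate.

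The members were also read in droplets holding at most 100 UMIs, which carry RNA set free in the suspension. These droplets were read from the unfiltered matrices, and the gates from the filtered ones. Coch there was at 0.546 CPM in NCD, 8.37 and 16.5 CPM in the HFD pair and 0.165 CPM in JQF, 1 UMI in the last. The order of the libraries was that of the CD8 gate. Pdcd1 was at 17.1 CPM in NCD, 24.1 and 34.9 in the HFD pair and 9.57 in JQF, and Havcr2 at 29.1, 61.2, 54.8 and 26.7 CPM. Adgrg1 was different, at 42.0 CPM in NCD and 7.26 to 11.5 CPM elsewhere, and the NCD library is the one with the most cells in the endothelial gate, where Adgrg1 was at 77.1 CPM. The part of free RNA in the CD8 gate values was not tested.

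The other lymphocyte gates had other orders. In the CD4 gate, NCD was above both HFD libraries for 8 of 10 members (41.8% of genes), and JQF below both for 4 (38.8%). Here and in the next gates the shares cover genes at a mean of 10 CPM or more. The member counts include members below that level. Tox was at 2114 CPM in NCD, 521 and 677 CPM in the HFD pair and 479 CPM in JQF, and Ctla4 at 881, 166 and 439, and 229 CPM. Pdcd1 followed, at 116 CPM in NCD, 54.6 and 49.8 CPM in the HFD pair and 37.1 CPM in JQF. NCD was the highest CD4 library for all 3. Coch in CD4 cells had 16 UMIs in 7 JQF cells (4.83 CPM) and 1 to 3 UMIs in each other library.

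In the Treg gate, with 30 to 62 cells per library, Ctla4 was at 1536 CPM in NCD, 699 and 1302 in the HFD pair and 809 in JQF, and Tox at 3099, 1612 and 2224, and 1739 CPM, above the CD8 gate of the same library for Tox in NCD, HFD replicate 1 and JQF. Pdcd1 was at 175 CPM in NCD, 203 and 184 CPM in the HFD pair and 72.7 CPM in JQF, the 1 member for which JQF was below both HFD libraries (36.4% of genes). Coch had 0 UMIs in every Treg library, which allows up to 5.46 to 8.24 CPM (3 counts per library), and Adgrg1 had 1 UMI in all.

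The iNKT-like gate, which held 1922 cells in JQF against 199 to 309 elsewhere, was below the CD8 gate of the same library for Pdcd1 and Tox. Pdcd1 was at 6.78 CPM in NCD, 11.9 and 40.0 CPM in the HFD pair and 14.1 CPM in JQF, and Tox at 458, 339 and 374, and 282 CPM. Entpd1 was at 318 CPM in NCD, 98.2 and 106 CPM in the HFD pair and 133 CPM in JQF. In the NK gate Cd244a, a receptor of NK cells in its own right, was at 131 CPM in NCD, 195 and 201 CPM in the HFD pair and 161 CPM in JQF, above every CD8 library. Tox was also high in this gate, at 1266 CPM in NCD, 1026 and 865 in the HFD pair and 706 in JQF. Pdcd1 had only 1 to 17 UMIs per library there, and Adgrg1 0 to 6. JQF was below both HFD libraries for 1 member in the iNKT-like gate (42.0% of genes) and 5 in the NK gate (46.8%). NCD was above both for 4 members in each of the Treg (42.0%), iNKT-like (30.7%) and NK (32.8%) gates. Some of these places rest on very few UMIs. In the NK gate, Pdcd1 in NCD counted as above with 1 UMI, and Adgrg1 in JQF as below with 2 UMIs.

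**Figure D4:**
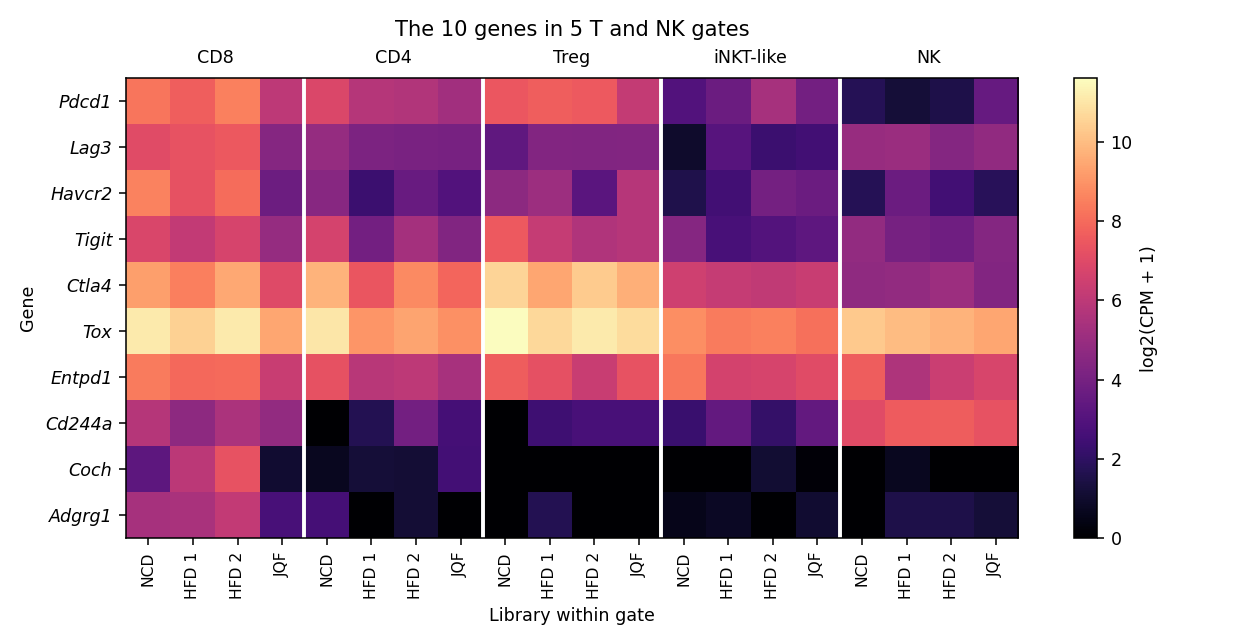
log2(CPM + 1) of the 10 genes (rows) in the 4 libraries of each of 5 T and NK gates (columns). Coch is high in the CD8 gate of both HFD libraries, Cd244a is brightest in the NK gate at 131 to 201 CPM, and Ctla4 and Tox are high in the CD8, CD4 and Treg gates.

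Over the 20 values of 5 gates and 4 libraries, the Pearson r of log2(CPM + 1) describes which genes followed each other, given with no test since the gates of a library share its cells' preparation. Among members, Tigit and Tox were most alike (0.90), then Pdcd1 and Ctla4 (0.89) and Coch and Adgrg1 (0.82), and Ctla4 and Cd244a ran most apart (-0.62). Among the 8272 genes at a mean of 10 CPM or more over these values, which leaves out Adgrg1, those most like Pdcd1 were Sdcbp2 (0.94), Tox2 (0.91), Kif5c (0.89), 1500009L16Rik (0.89) and Syt11 (0.89), and those most like Tox included Ica1 (0.91), Tigit (0.90), Glcci1 (0.89) and Rgs16 (0.85). Coch and Adgrg1 had the same nearest gene, Glp1r, the receptor of glucagon-like peptide 1, with 0.82 and 0.93. In the CD8 gate Glp1r was at 110 CPM in NCD, 36.0 and 70.6 CPM in the HFD pair and 7.08 CPM in JQF. Within this gate NCD was thus above both HFD libraries for Glp1r. For Coch (8.82 against 61.1 and 158 CPM) and Adgrg1 (40.5 against 43.6 and 69.2 CPM) NCD was below both. After Glp1r, Coch was followed by Gm44174 (0.79), Rpa2 (0.78), Erp44 (0.77) and Ildr1 (0.73), and Adgrg1 by Gm44174 (0.89), Nsmaf (0.87), Ralgapa2 (0.85) and Sh2d2a (0.84).

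Other genes of the pathway, outside the set of members, were tested in the CD8 gate with edgeR on UMIs summed per library. Their lists were chosen with earlier results of these data known, so they are not independent of these data. Of 67 such genes in 5 lists, all tested, 7 were called at an adjusted p under 0.05 in HFD against NCD (2 higher and 5 lower). Of all 13540 genes tested there, 3.32% were called, 0.739% higher and 2.58% lower. In JQF against HFD 4 of the 67 were called (1 higher and 3 lower), beside 0.502% of all genes, 0.369% higher and 0.133% lower. The single residual degree of freedom comes from the HFD pair, and NCD and JQF are assumed to vary as HFD does. DESeq2 called 12 and 13 of the 67 genes, with 6 of the 13 higher in JQF, removal of doublets gave 13 and 12, and a stricter cell filter left 1 call (Maf) in JQF against HFD. The shares of all genes above are for the main edgeR fit alone, and none is given for these alternatives.

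Transcription factors gave 3 of the 7 calls in HFD against NCD. Maf, known for its part in Il10 and Il21 expression, was at 69.3 CPM in NCD, 477 and 408 CPM in the HFD pair and 34.7 CPM in JQF. The edgeR log2 fold change was 2.69 in HFD against NCD (SE 0.26, adjusted p = 0.00701). In JQF against HFD it was -3.57 (SE 0.27, edgeR adjusted p = 0.00479). Nr4a3, an early response factor downstream of the T cell receptor, went the other way, at 981 CPM in NCD, 204 and 151 CPM in the HFD pair and 541 CPM in JQF. It fell by 2.46 on the log2 scale in HFD against NCD (SE 0.24, edgeR adjusted p = 0.00718) and rose by 1.71 in JQF against HFD (SE 0.24, adjusted p = 0.0408). Zeb2, a factor of terminal effector cells, fell from 685 CPM in NCD to 225 and 184 CPM in HFD (-1.73, SE 0.22, edgeR adjusted p = 0.0130), with 217 CPM in JQF. The other 14 transcription factors of the list were not called in HFD against NCD. Tox2, the closest relative of Tox, was at 72.9 CPM in NCD, 21.7 and 80.1 CPM in the HFD pair and 9.53 CPM in JQF, and Prdm1 at 99.8, 101 and 154, and 29.7 CPM, with edgeR adjusted p of 0.288 and 0.0704 in JQF against HFD.

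Genes of naive, memory and progenitor cells included 3 of 13 that fell in HFD against NCD. Ccr7, a lymph node homing receptor, was at 126 CPM in NCD and 34.8 and 42.2 CPM in HFD (log2 fold change -1.69, SE 0.24, edgeR adjusted p = 0.0191), and Bach2, a repressor of effector genes, at 838 CPM and 332 and 324 CPM (-1.34, SE 0.22, adjusted p = 0.0283). The third was Lef1, named here after its values were seen. In JQF, Ccr7 was at 98.1 CPM and Bach2 at 617 CPM, and none of the 13 was among the 4 calls. The median log2 fold change of the 13 in JQF against HFD was 0.90 beside -0.01 for all genes. Tcf7, a factor of naive as well as progenitor exhausted cells, is named here though it was not called. It was at 96.6 CPM in NCD, 149.98 and 103 CPM in the HFD pair and 250 CPM in JQF (edgeR adjusted p = 0.132 in JQF against HFD). NCD was thus the lowest library for Tcf7 but the highest for Ccr7 and Bach2.

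Of 17 effector and residency genes, Gzmk alone was called, in both contrasts. Gzmk, a granzyme found in HFD at 258 and 332 CPM, was at 114 CPM in NCD (log2 fold change 1.40, SE 0.28, edgeR adjusted p = 0.0477) and 69.7 CPM in JQF (-1.99, SE 0.29, adjusted p = 0.0439). Both Gzmk calls were lost with the stricter cell filter (edgeR adjusted p = 0.0588 and 0.0631), as were those of Cd200r1 and Nr4a3 in JQF against HFD (both 0.0574). The list's median in JQF against HFD was -0.88. Of 15 other checkpoint and costimulatory receptors, Cd200r1 alone was called, at 85.1 and 104 CPM in HFD and 22.7 CPM in JQF (-1.97, SE 0.28, edgeR adjusted p = 0.0416), with 85.8 CPM in NCD. The median of that list was -0.08.

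Ligands of the receptors are given by their range over libraries. Cd274 (PD-L1) was highest in the neutrophil gate, at 644 to 1178 CPM. It was at 143 to 485 CPM in the macrophage gate and at 115 to 198 CPM in the cDC gate. In the same order, Lgals9, a ligand of TIM-3, was at 122 to 150 and 13.2 to 44.1 CPM. Pvr, the ligand of TIGIT, was at 12.2 to 36.5 and 24.0 to 102 CPM. Cd86, a ligand of CTLA-4, was at 346 to 1062 and 310 to 1799 CPM. Lgals9 had its highest range in the endothelial gate, at 125 to 177 CPM. Nectin2, a further TIGIT ligand, was at 60.9 to 96.3 CPM in the endothelial gate and 14.8 to 119 CPM in the monocyte gate. The LAG-3 ligand Fgl1 stayed at or below 5.85 CPM in every gate. Hepatocytes had no gate, so their level of Fgl1 was not measured.

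The members were last measured in 6 gates that their choice did not use, where they could be tested. Of 39 gene and gate pairs that passed the filter on low counts, 5 were called in HFD against NCD by edgeR and 7 by DESeq2, with 20 at an unadjusted p under 0.05. Of all genes, 9.76% were called in the B gate, 1.56% in the macrophage, 0% in the monocyte, 11.8% in the cDC, 8.85% in the neutrophil and 9.78% in the endothelial gate. In JQF against HFD 0 pairs were called by edgeR and 0 by DESeq2, with 9 at an unadjusted p under 0.05. With doublets removed 3 pairs were called, with no filter on low counts 3 and with stricter gates 1. Of all genes, 0.131% were called in the B gate, 0.0322% in the macrophage, 0% in the monocyte and cDC, 0.205% in the neutrophil and 0.954% in the endothelial gate. In both contrasts these shares are for the main edgeR fit at adjusted p. No share of all genes is given for DESeq2, unadjusted p or the other settings, so those counts have nothing to be read against.

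Entpd1 made up 3 of the 5 calls. In the neutrophil gate it was at 4722 CPM in NCD (52 cells), 1027 and 1014 CPM in HFD and 1236 CPM in JQF (HFD against NCD log2 fold change -2.18, SE 0.22, edgeR adjusted p = 1.15e-04). In the cDC gate it was at 354 CPM in NCD, 120 and 104 CPM in the HFD pair and 105 CPM in JQF (-1.67, SE 0.14, edgeR adjusted p = 0.0376), and this call was lost with no filter on low counts (adjusted p = 0.115) and with the stricter cell filter (adjusted p = 0.0980). In the endothelial gate it rose, from 18.0 CPM in NCD to 202 and 110 CPM in HFD, with 74.1 CPM in JQF (2.94, SE 0.40, edgeR adjusted p = 1.55e-07). HFD replicate 1 had only 116 endothelial cells, and without it the log2 fold change was 2.47. In the endothelial gate, genes also known from myeloid cells were higher in HFD too, with Lgals3 at 2.94 CPM in NCD and 326 and 48.8 CPM in HFD, and Cd86 at 4.37 CPM and 106 and 31.9 CPM, both named after their values were seen. Free RNA held Entpd1 at 74.8 CPM in NCD and 126 and 159 CPM in HFD. The part of either in the endothelial values was not tested. In the other 2 myeloid gates Entpd1 was not called. It was at 878 CPM in NCD and 131 and 128 CPM in HFD in the monocyte gate (log2 fold change -2.56, SE 0.28, edgeR adjusted p = 0.184), where no gene was called, and at 669 CPM and 294 and 409 CPM in the macrophage gate (-0.91, SE 0.27, edgeR adjusted p = 0.124).

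Adgrg1 fell in the endothelial gate from 77.1 CPM in NCD to 19.0 and 39.3 CPM in HFD, with 58.5 CPM in JQF (-1.46, SE 0.34, edgeR adjusted p = 0.00157), and DESeq2 did not call it (adjusted p = 0.119). Leaving out 1 HFD library at a time gave -1.11 without replicate 1 and -2.19 without replicate 2. Tox fell in the cDC gate from 25.1 CPM in NCD to 10.1 and 7.25 CPM in HFD (-1.54, SE 0.24, edgeR adjusted p = 0.0424), but in NCD 3 of 167 cells carried 84.2% of its UMIs, and with doublets removed the log2 fold change was -0.14 (adjusted p = 0.836). Havcr2, known on dendritic cells too, was at 330 CPM in NCD, 171 and 194 CPM in the HFD pair and 141 CPM in JQF in the cDC gate, and was not called by edgeR. Coch was at or below 0.822 CPM in the B, macrophage, monocyte, cDC and endothelial gates of every library, and in the neutrophil gate it had 3 UMIs in HFD replicate 2 and 0 in the others.

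**Figure D5:**
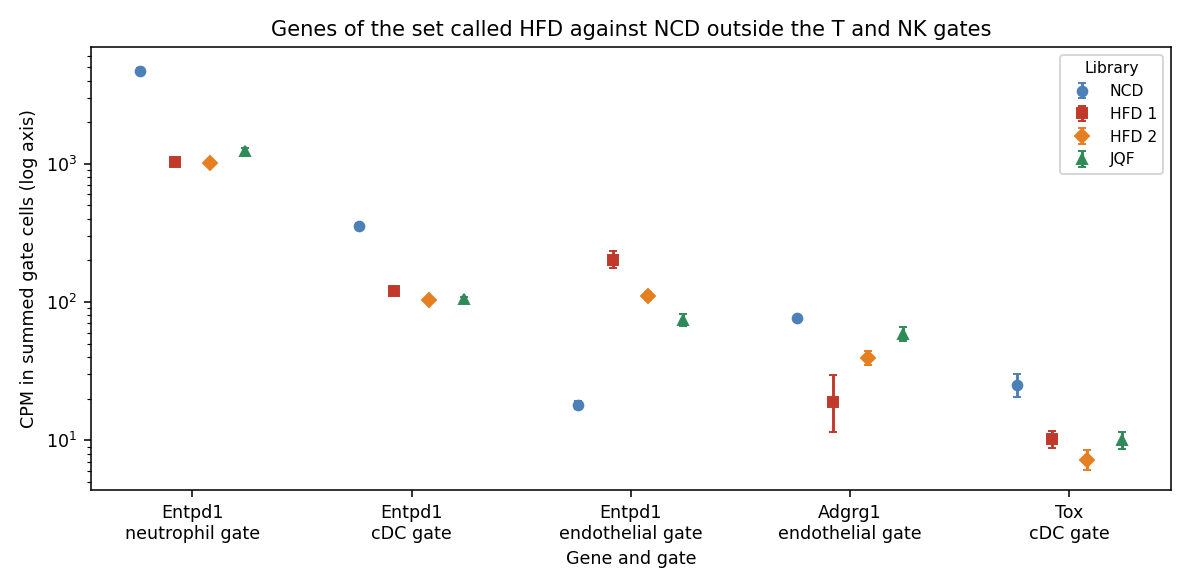
CPM (log axis) of the 5 gene and gate pairs called by edgeR in HFD against NCD outside the T and NK gates, with 1 symbol per library and exact Poisson 95% intervals for counting error. Entpd1 is highest in NCD in the neutrophil (4722 CPM) and cDC (354 CPM) gates and lowest in NCD in the endothelial gate (18.0 CPM).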

How the data were processed

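Liver single-cell libraries from 4 samples were used. The deposited files hold UMI counts per gene and cell made by the authors with Cell Ranger on mm10 (submitters' notes: Cell Ranger 6.0.1 and Seurat 4.0.3). The filtered matrices' headers give 7.0.0 and those of the unfiltered matrices give Cell Ranger 4. Gate values came from the filtered matrices and free RNA values from the unfiltered ones. Whether both kinds of matrix were counted in the same way is not given in the sources used here. Kept cells had 500 or more genes and no more than 20% of UMIs from mt- genes. Gates on raw marker UMIs excluded cells with 2 or more UMIs of another lineage; no doublets were removed in the main values, since Scrublet's own threshold did not work in JQF and NCD (0.0117% and 0.0167% of cells marked, against 0.936% and 3.02% in HFD). Counts were summed per gate and library, given as CPM, and tested with edgeR 4.0.16 (TMM scaling, filterByExpr, quasi-likelihood test, Benjamini-Hochberg adjustment over all genes of a gate) in R 4.3.3, with 1 residual degree of freedom. DESeq2 1.42.0, other scaling, gates, cell filters and removal of doublets (scanpy 1.11.5) were alternatives. Co-detection was also read after thinning cells to 2000 UMIs. Intervals cover counting error only. The scripts were tested on simulated data: in the CD8 gate, HFD against NCD, 32.3% of genes changed 2-fold and 69.1% of those changed 4-fold were recovered. The simulated spread between libraries was a single fixed value for all genes, not estimated from these data. These shares therefore do not give the recovery of genes that vary more between libraries. Named were the 10 members, up to 6 called pathway genes per contrast with the largest changes and at least 20 CPM in a group, and the 5 genes most like Pdcd1, Tox, Coch and Adgrg1, of which 1 is not reported here. The members and lists were chosen with earlier results of these data known. Nothing in the labels says which animals gave each library, and the paper gives n = 1 for NCD, n = 2 for HFD and n = 1 for JQF. The p-values rest on the spread of the HFD pair, with edgeR sharing spread across genes. No spread was measured within NCD or JQF. Whether reads in introns were counted is not given in the sources used here.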

Additional observations from a re-analysis of the deposited data

How the results depend on the processing

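Main counts of pathway genes called in the CD8 gate were 7 in HFD against NCD and 4 in JQF against HFD. They became 12 and 13 with DESeq2, 19 and 20 with library totals in place of TMM, and 13 and 12 with doublets removed; in JQF against HFD they became 7 with no filter on low counts and 1 with the stricter cell filter. Members called outside the T and NK gates, 5 in HFD against NCD and 0 in JQF against HFD, became 9 and 3 with no filter on low counts, which tested 59 pairs in place of 39. The first count was 3 with the stricter cell filter, and the second was 1 with stricter gates and 3 with doublets removed. No share of all genes called is given under these alternatives, for the pathway genes or for the members. The HFD mean share of CD8 gate cells with at least 2 receptors, 59.5%, was 42.3% after thinning and 77.8% in cells without Ccr7 and Lef1, an alternative chosen after seeing the data, and ranged from 52.1% to 66.9% with 1 HFD library left out. JQF minus HFD, -31.9 percentage points, ranged from -39.3 to -24.5 with 1 HFD library left out. The cause of these moves was not tested. With 1 HFD library left out, the log2 ratio of HFD to NCD in the CD8 gate ranged from -0.60 to 0.25 for Pdcd1 (-0.12 with both), from -0.80 to 0.20 for Ctla4 (-0.22) and from -0.62 to 0.021 for Tox (-0.27), each changing sign without HFD replicate 1. For Cd244a the JQF to HFD ratio of -0.34 ranged from -0.69 to 0.14, changing sign without HFD replicate 2, and was 0.15 in cells without the naive genes. With 1 HFD library left out no residual degree of freedom remains, so the counts of calls were not rerun. The stricter neutrophil gate, with 44 cells in 1 library, could not be fitted. No paired analysis was possible because nothing in the labels pairs libraries across groups.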
